A study of Mus musculus with 8 samples.

Results

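Solute carriers of the lysosome in macrophages were described by their H3K27 acetylation in microglial nuclei with and without Grn. The 8 genes Slc38a9, Slc36a1, Slc29a3, Slc37a2, Slc15a3, Slc15a4, Slc11a1 and Slc17a5 were chosen by name, with earlier results of these data known. Their members in the deposited table were the regions whose nearest promoter carried one of these symbols. They held 120 of 129304 regions, and were 8 of 18707 gene symbols. After the filter on low tags, 91 of the 120 regions and all 8 gene sums were tested. The study asked how the histone mark H3K27ac, found at active promoters and enhancers, differed between wild-type (WT) C57BL/6 mice and C57BL/6 mice with a knockout of Grn (GrnKO), all 2 years old. Grn encodes progranulin, a secreted protein that is delivered to lysosomes. Nuclei were taken from whole brain and sorted as PU.1+, OLIG2- and NEUN-, so that the groups are defined by a myeloid transcription factor and not by a microglia-specific one. Each genotype had 2 H3K27ac libraries and 2 input libraries (chromatin sequenced without the antibody), each replicate being a pool of nuclei from 2 mice. The labels used here do not give the sex of the mice or the kind of Grn allele.

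Solute carriers of the lysosomal membrane move the products of digestion, metal ions and signalling ligands between the lumen and the cytosol, mostly by using the proton gradient that the vacuolar ATPase builds. Macrophages and microglia, which digest large amounts of engulfed material, depend on them to clear amino acids, nucleosides, sugars and sialic acid. Several also take part in signalling: Slc38a9 is an arginine sensor for the kinase complex mTORC1, and Slc15a4 is needed for signalling by the endosomal Toll-like receptors. Accessible chromatin with H3K27ac marks the promoters and enhancers in use, and is no measure of mRNA or protein.

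Slc17a5 was the only one of the 8 genes whose summed H3K27ac passed the test, and it was higher in GrnKO by 1.74-fold. The other 7 sums did not pass, and their log2 changes lay between -0.47 for Slc38a9 and 0.22 for Slc37a2. With the replicate number as a term in the fit, the sums of Slc38a9 and Slc29a3 were also called, both lower. In that fit 18.5% of all sums were called. Below the gene level, 7 regions changed. These were 1 of Slc17a5 and 2 of Slc37a2, all higher, and 2 each of Slc29a3 and Slc11a1, all lower. The called share was 7.69% of the tested member regions, against a background of 9.72% of 80728 tested regions. By direction it was 3 regions higher, where 6.80% of all regions were called, and 4 lower, where 2.92% were. At the gene level 1 of 8 sums was called, against a background of 14.5% of 15380 sums (8.60% higher, 5.88% lower). The members' share of calls was therefore near that of the whole table, in regions and in sums. The member regions had a median log2 change of 0.02, against -0.002 over the table. In 28 member regions both GrnKO libraries lay above both WT libraries and in 25 both lay below, together 58.2% against a background of 52.7% (25.6% for those below). In the authors' scaling, described below, 34 lay above and 8 below, where 35.8% and 13.3% of all regions did. Neighbouring regions share tags, because 77 of the 120 overlap another member region.

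Values are scaled tags: tags in an 800 bp region per 10000000 tags of the library, divided by a trimmed-mean (TMM) factor. H3K27ac libraries held 15491642.5 to 20030832 tags and inputs 4078179 to 14415969. WT replicate 1 stood apart, with 49.4% of its tags in the listed regions against 63.3% to 65.7% in the other 3 H3K27ac libraries, and its TMM factor was 0.825 against 1.04 to 1.08. In the authors' scaling alone, without these factors, all tested regions had a median log2 change of 0.22 and all gene sums one of 0.18, so that the direction of small changes depends on the scaling. The member regions called were then 7 higher, against a background of 8.15%, and 0 lower, against 0.412%. In both genotypes replicate 1 had tags at Xist and few or none on chromosome Y, and replicate 2 the reverse, so that replicates 1 and 2 differed in the sex-linked signal. With the replicate number as a term in the fit, 7 member regions were called higher and 8 lower, where 9.17% and 4.94% of all regions were. In that fit 3 of 8 sums were called, against 18.5% of all sums. The targeted gene went with the labels: the 10 regions of Grn summed to 2291 and 1871 scaled tags in WT and to 157 and 162 in GrnKO. Markers of microglia, 10 genes in all, had 266 and 289 scaled tags per kb of region in WT and 221 to 233 in GrnKO. Those of the oligodendrocyte lineage (5 of 6 genes in the table) went from 53.3 to 55.7 up to 67.5 to 71.4, and those of endothelium (3 of 4) from 31.4 to 32.5 up to 45.1 to 48.9. Monocyte markers (3 of 4) went from 33.5 to 33.9 down to 20.8 to 25.95, and neuronal ones (6 of 6) from 13.01 to 16.2 down to 8.97 to 10.6. Border macrophage markers (6 of 6) had 27.2 to 29.2, and neutrophil, lymphocyte and astrocyte markers at most 7.78 in any library. No marker gene in the table was at 0 in every H3K27ac library, and Chil3, Ly6g, Cd79a, Nkg7, Sox10 and Tek had no region in it. The part of these shifts in the members' results was not tested. Sorted nuclei were measured in bulk, so fewer nuclei with a mark and less of it per nucleus cannot be told apart.

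The acetylation of the genes in WT spanned a wide range. Slc11a1 had the highest level per length, at 311 ± 26.8 scaled tags per kb of its regions in WT (SD, n = 2). Slc29a3 followed with 253 ± 20.1, then Slc36a1 with 171 ± 4.08, Slc37a2 with 163 ± 10.1 and Slc15a4 with 143 ± 7.72. The lowest were Slc15a3 with 85.7 ± 11.4, Slc38a9 with 52.7 ± 4.01 and Slc17a5 with 45.5 ± 4.06. Only Slc36a1 and Slc37a2 had overlapping WT values among neighbours in this order. In GrnKO the order had 2 exchanges: Slc37a2 (190 ± 0.280) stood above Slc36a1 (158 ± 1.00), and Slc17a5 (79.2 ± 5.41) above Slc38a9 (38.0 ± 3.12). The plot of levels per kb shows both exchanges.

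**Figure D1:**
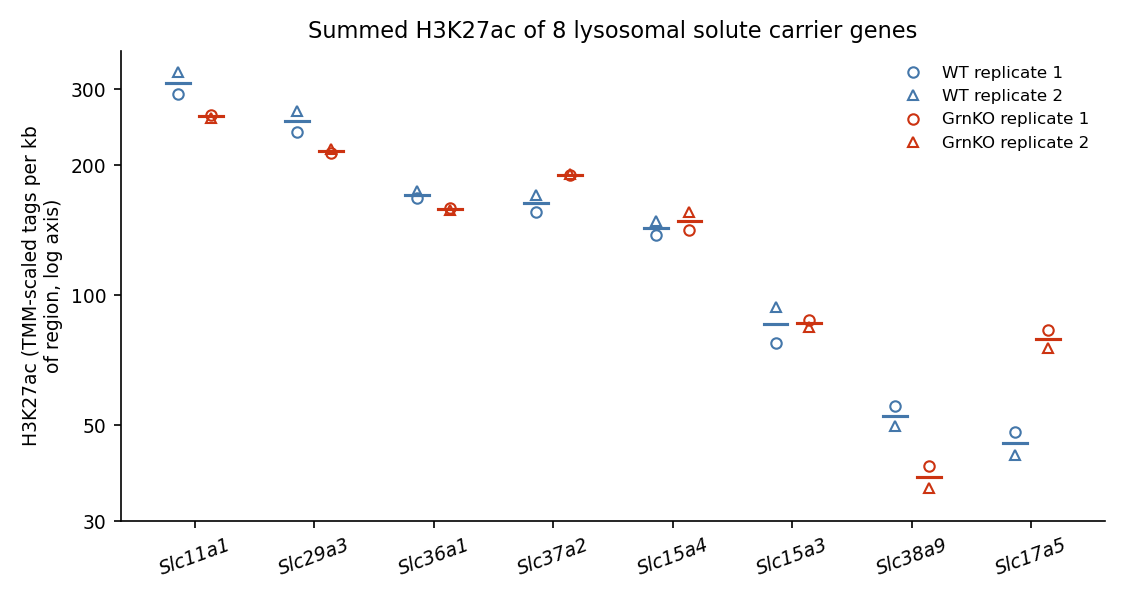
Summed H3K27ac of each gene in scaled tags per kb of its regions (log axis), for 2 WT (blue) and 2 GrnKO (red) libraries; circles are replicate 1, triangles replicate 2 and bars the group means. Both GrnKO values of Slc17a5 lie well above both WT values, and those of Slc15a3 and Slc15a4 overlap with WT.

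**Figure D2:**
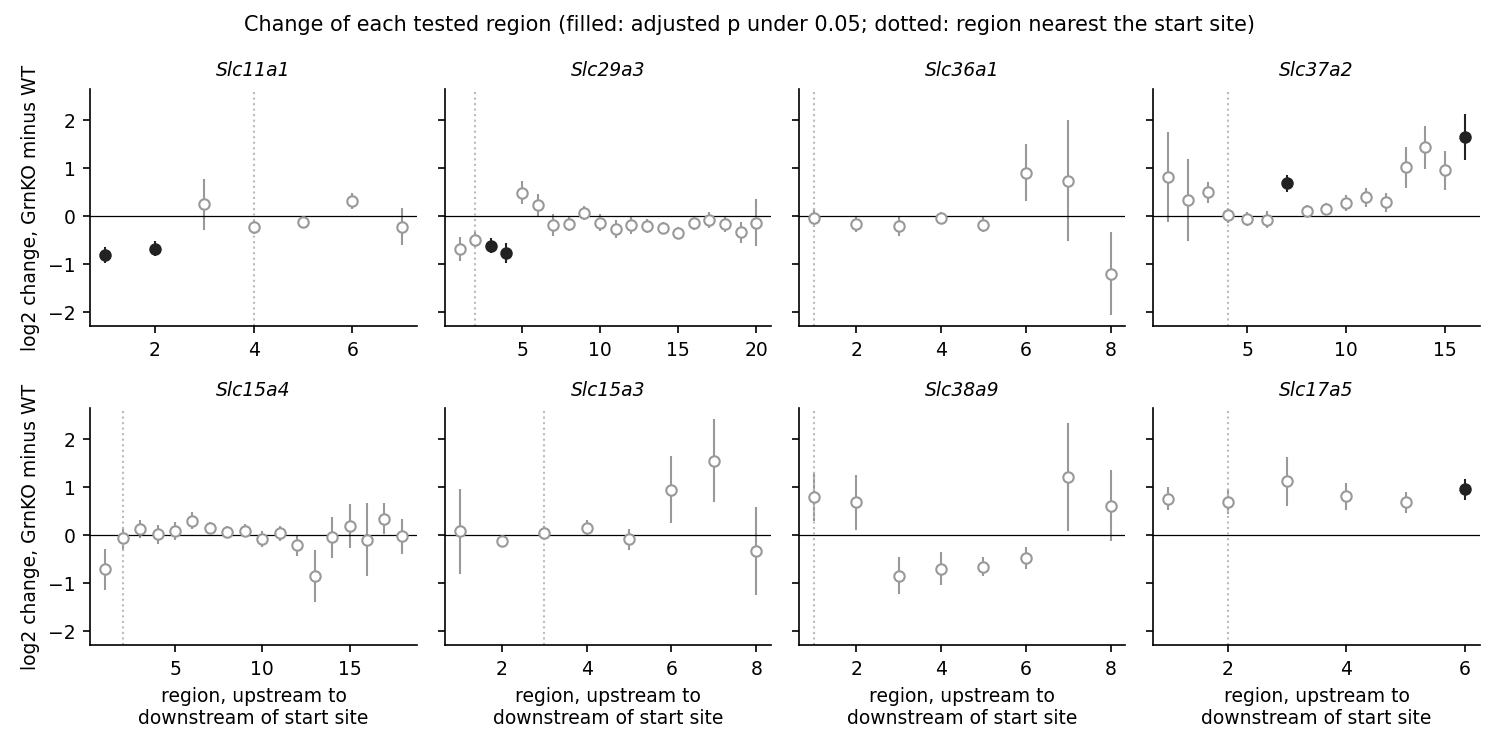
The log2 change (GrnKO minus WT) of each of the 91 tested regions with its standard error, in order along each gene from upstream to downstream of the start site. Filled points are the 7 regions called; Slc17a5 regions all lie above 0, and the last regions of Slc37a2 lie well above 0 and those near its start site close to it.

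Slc17a5 encodes sialin, which exports sialic acid freed from glycoproteins and glycolipids out of the lysosome, and whose loss causes sialic acid storage disease. Its regions summed to 348 and 307 scaled tags in WT and to 598 and 543 in GrnKO. The GrnKO libraries did not overlap with WT, and the log2 change was 0.80 (SE 0.14, limma adjusted p = 0.00207). By the authors' scaling it was 1.03 (limma adjusted p = 0.000383). All 6 tested regions, of 9 in the table, were higher in both GrnKO libraries than in both WT libraries under both scalings, with log2 changes of 0.69 to 1.12. The region called was chr9:78537817-78538617 in the last exon, near the 3′ end of the gene and 49828 bp from the start site. It held 64.9 and 72.3 scaled tags in WT and 143 and 126 in GrnKO, a difference of 0.96 on the log2 scale (SE 0.22, limma adjusted p = 0.00978). The strongest tested region, chr9:78538140-78538940 in intron 10, overlaps it and held 93.5 and 76.5 in WT and 147 and 127 in GrnKO (0.69, adjusted p = 0.0528). Over the start site, chr9:78587765-78588565 had 49.7 and 49.2 in WT against 85.4 and 76.6 in GrnKO (0.70, adjusted p = 0.103). Summed within 1000 bp of the start site the log2 change was 0.78 (SE 0.20, adjusted p = 0.0302), where 5.24% of genes were called. Summed beyond it the change was 0.81 (SE 0.17, adjusted p = 0.00722), where 18.1% were. The change of one relative to the other was -0.03, with a 95% interval from -0.66 to 0.59. The call on the gene sum was lost when GrnKO replicate 1 was left out (0.73, adjusted p = 0.0553, with 5.07% of all sums called), and without WT replicate 1 it was 0.89.

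The promoter of Slc17a5 is shown because the sum within 1000 bp of its start site was called higher. The region over the start site was not called by itself. The window on GRCm38.p6 (RefSeq) runs from 250 bases before to 10 after the start, chr9:78588036-78588295 on the minus strand, and is written 5′ to 3′ along the gene. It has no capitals, because none of the 5 motifs searched in these windows was in it.
Slc17a5: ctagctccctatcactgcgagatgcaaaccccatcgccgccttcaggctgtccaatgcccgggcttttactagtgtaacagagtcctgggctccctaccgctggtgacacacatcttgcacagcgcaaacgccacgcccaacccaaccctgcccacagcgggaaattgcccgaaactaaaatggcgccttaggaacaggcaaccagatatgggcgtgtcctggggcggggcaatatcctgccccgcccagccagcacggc
The motifs, read on both strands, were CACGTG and its longer form TCACGTGA (bound by the MiT/TFE factors of lysosomal genes), TGANTCA (bound by AP-1), and GGAAGT and GAGGAAGT (ETS sites, bound by PU.1). Each longer form contains the shorter one or its core. Windows were found for 7 of the 8 genes, all but Slc15a3.

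Beyond the 3′ end of Slc17a5 lay a group of regions that were also higher in GrnKO. The flanking gene on that side, Eef1a1, encodes the elongation factor that brings aminoacyl-tRNA to the ribosome. Its 25 regions summed to 621 and 663 scaled tags in WT and to 1495 and 1420 in GrnKO (log2 change 1.18, SE 0.11, limma adjusted p = 1.59e-05). Shared tags count more than once in this sum, and over non-overlapping regions its log2 change was 1.05 (limma adjusted p = 4.17e-05). Of the 13 tested regions of Eef1a1 7 were called, all higher, where 6.80% of all tested regions were. These 7 were intergenic, between chr9:78527121 and 78534143. They lay 2.34 to 8.57 kb from the end of Slc17a5 and 45.8 to 52.0 kb from the Eef1a1 start site to which the table assigns them. Each of them overlaps another of the 7, so they share tags and are not 7 separate sites. They were singled out after their values were seen. The one with the smallest p, chr9:78531848-78532648, held 39.9 and 30.6 scaled tags in WT and 205 and 194 in GrnKO (log2 change 2.48, SE 0.24, adjusted p = 7.34e-06). The other 6 had log2 changes of 1.12 to 2.46, and the 7 were also called in the authors' scaling. The calls at 78527925 (adjusted p = 0.141 and 0.160) and 78533343 (0.281 and 0.187) were lost without GrnKO replicate 1 or 2. At the Eef1a1 start site, chr9:78481492-78482292 held 128 and 113 in WT and 158 and 126 in GrnKO, which overlap (0.23, adjusted p = 0.541). On either side of it, chr9:78480552-78481352 had 81.0 and 128 against 138 and 140 (0.45, adjusted p = 0.243), and chr9:78482158-78482958 had 88.4 and 78.3 against 132 and 98.3 (0.45, adjusted p = 0.248). GrnKO lay above WT in both of these without passing the test. Summed over the span of Eef1a1 and 1000 bp on each side, the log2 change was 0.34 (adjusted p = 0.182). The called regions filed under Eef1a1 thus lay next to Slc17a5, and which gene they act on was not measured. The other flanking gene, Cd109, had 3 regions, none of which passed the filter.

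**Figure D3:**
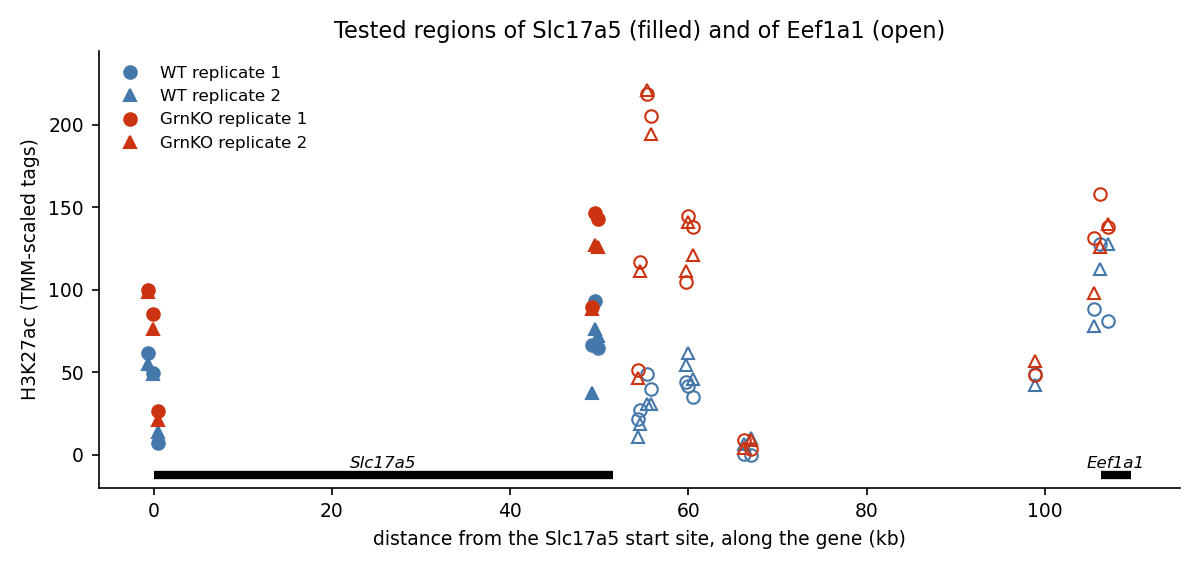
H3K27ac in scaled tags of each tested region of Slc17a5 (filled) and of its neighbour Eef1a1 (open) against distance from the Slc17a5 start site in kb, with black bars for the 2 genes; blue is WT and red GrnKO, circles replicate 1 and triangles replicate 2. The 7 intergenic regions beyond the 3′ end of Slc17a5 reach 221 scaled tags in GrnKO and at most 61.8 in WT.

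By root-mean-square difference of centred log2 sums over the 4 H3K27ac libraries, the genes most like Slc17a5 were Farsb (0.019), Mrpl1 (0.026) and Pkp4 (0.027). Farsb, a subunit of the phenylalanine tRNA synthetase, summed to 339 and 305 in WT and 580 and 543 in GrnKO. Mrpl1, a protein of the mitochondrial ribosome, had 225 and 189 against 372 and 343. Pkp4, a plakophilin of cell junctions, had 30.9 and 28.02 against 56.3 and 51.0. The sums of Farsb and Mrpl1 were called (limma adjusted p = 0.00184 and 0.00620), and that of Pkp4 was not (0.128). Over the span of Pkp4 the log2 change was 0.24 (limma adjusted p = 0.435).

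Slc29a3 encodes ENT3, a lysosomal nucleoside transporter whose loss in humans causes a disorder with accumulation of histiocytes. Acetylation near its start site was lower in GrnKO. The called regions lie in intron 1. At chr10:60751743-60752543 acetylation was 385 and 348 scaled tags in the WT libraries against 226 and 254 in GrnKO (log2 change -0.61, SE 0.15, limma adjusted p = 0.0122). At chr10:60751232-60752032, which overlaps it, they measured 229 and 164 in WT against 125 and 103 in GrnKO (-0.77, SE 0.21, adjusted p = 0.0232). The region over the start site, chr10:60752403-60753203, had 266 and 293 in WT and 173 and 230 in GrnKO (-0.49, adjusted p = 0.0804). WT and GrnKO libraries did not overlap in these 3 regions. The strongest region, chr10:60738539-60739339 in intron 2, had 400 and 558 in WT and 421 and 436 in GrnKO, which overlap (-0.14, adjusted p = 0.609). Summed within 1000 bp of the start site, Slc29a3 had 788 and 747 in WT and 459 and 574 in GrnKO (log2 change -0.58, SE 0.13, adjusted p = 0.0160). Beyond it the values were 3987 and 4597 against 3804 and 3781 (-0.17, SE 0.08, adjusted p = 0.174). Relative to the distal sum the start-site sum changed by -0.40 (95% interval -0.79 to -0.01, limma adjusted p = 0.343), so that the difference between the parts did not pass. Of 7324 genes with both parts, 0.0410% were called in that comparison. The sum over all 25 regions was 4775 and 5344 in WT and 4263 and 4355 in GrnKO (-0.23, adjusted p = 0.0628, and 0.0138 with the replicate number as a term). In the authors' scaling that change was -0.003 with overlapping groups, and neither intron 1 region was called (-0.38 and -0.54, adjusted p = 0.444 and 0.255). Without WT replicate 1 the sum changed by -0.31, and the region at 60751232, no longer called, by -0.53.

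The Slc29a3 promoter is shown for comparison with that of Slc17a5, as that of the one member whose start-site sum was called lower (chr10:60752773-60753032, minus strand, RefSeq on GRCm38.p6). It too held none of the motifs searched.
Slc29a3: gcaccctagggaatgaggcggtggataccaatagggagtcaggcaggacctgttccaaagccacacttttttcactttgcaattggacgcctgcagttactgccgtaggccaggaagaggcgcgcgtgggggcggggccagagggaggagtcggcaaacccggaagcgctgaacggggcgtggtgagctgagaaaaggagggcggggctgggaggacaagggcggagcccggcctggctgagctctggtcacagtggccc
Of its bases, with the first 50 of the transcript, 64.3% were G or C, against 60.7% in the Slc17a5 window and a median of 52.7% over all promoter windows.

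Slc15a3 and Slc15a4 encode PHT2 and PHT1, proton-coupled transporters of histidine and small peptides that bring bacterial muramyl peptides to the NOD sensors. Neither sum passed the test, and neither gene had a called region. In the authors' scaling the log2 changes of the sums were 0.24 for Slc15a3 and 0.28 for Slc15a4 (limma adjusted p = 0.642 and 0.595). Slc15a4 had 2644 and 2854 scaled tags in WT and 2726 and 2995 in GrnKO, which overlap (log2 change 0.06, 95% interval -0.13 to 0.24, limma adjusted p = 0.740). Its strongest region, chr5:127610564-127611364 in intron 1, had 509 and 508 in WT and 517 and 553 in GrnKO (0.07, adjusted p = 0.763). Its start-site region, chr5:127617068-127617868, had 81.3 and 95.9 against 75.0 and 96.0 (-0.06, adjusted p = 0.919). Most of the Slc15a4 signal lay in introns 1 and 2: the sum beyond 1000 bp was 2419 and 2592 in WT, against 226 and 262 at the start site. For Slc15a3 the reverse held, with 1015 and 1257 at the start site and 164 and 168 beyond. Slc15a3 summed to 1179 and 1425 in WT and 1331 and 1286 in GrnKO, which overlap (0.01, 95% interval -0.23 to 0.25, adjusted p = 0.957). Its strongest region, chr19:10841410-10842210 just before the start site, had 426 and 490 in WT and 403 and 442 in GrnKO (-0.11, adjusted p = 0.650). The region over its start site, chr19:10842080-10842880, had 306 and 364 against 346 and 346 (0.05, adjusted p = 0.863).

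Slc38a9, the arginine sensor and transporter that works with the Rag GTPases, had opposite signs at and away from its start site. Beyond 1000 bp its regions summed to 413 and 383 scaled tags in WT and 279 and 250 in GrnKO (log2 change -0.59, SE 0.16, limma adjusted p = 0.0225). Within 1000 bp the sum was 30.9 and 16.2 in WT and 42.7 and 36.2 in GrnKO (0.78, SE 0.42, adjusted p = 0.348). Neither comparison had overlapping groups, but the start-site values are low and did not pass. The change at the start site relative to the distal sum was 1.37 (95% interval 0.53 to 2.22, limma adjusted p = 0.201). The distal signal came mainly from intron 1. Its strongest region, chr13:112666407-112667207, had 160 and 182 in WT and 125 and 93.9 in GrnKO (-0.65, adjusted p = 0.0512). The region over the start site, chr13:112660320-112661120, had 20.7 and 8.90 against 28.8 and 20.99 (0.80, adjusted p = 0.348). The whole sum was 444 and 399 in WT and 322 and 286 in GrnKO (-0.47, SE 0.15, adjusted p = 0.0530, and 0.0287 with the replicate number as a term). Without WT replicate 2 the sum changed by -0.55, and in the authors' scaling by -0.25 (adjusted p = 0.631).

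**Figure D4:**
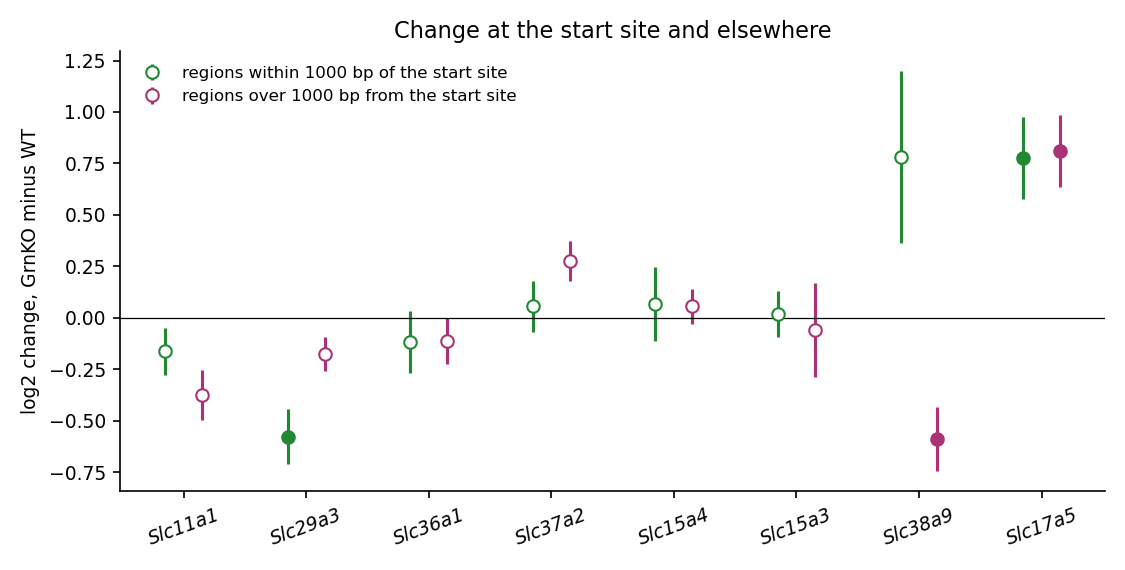
The log2 change (GrnKO minus WT, with its standard error) of the tags summed within 1000 bp of the start site (green) and beyond it (purple) for each gene; filled points have an adjusted p under 0.05. Slc17a5 is at about 0.8 in both, Slc29a3 is lower at its start site, and Slc38a9 has opposite signs.

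Slc36a1 encodes PAT1, a proton-coupled exporter of small neutral amino acids that is also linked to mTORC1. It had no called region. Its sum was 1211 and 1253 scaled tags in WT and 1144 and 1134 in GrnKO (log2 change -0.11, 95% interval -0.33 to 0.10, limma adjusted p = 0.529), and in the authors' scaling the sign turned (0.11, adjusted p = 0.854). The strongest region, chr11:55208040-55208840 in intron 1, had 411 and 409 in WT and 401 and 394 in GrnKO (-0.04, adjusted p = 0.884). The region over the start site, chr11:55203907-55204707, had 118 and 130 against 121 and 120 (-0.03, adjusted p = 0.943). Its promoter is shown because it alone among the 7 windows held the E-box CACGTG, which 7.15% of 32851 promoter windows hold (chr11:55204090-55204349, plus strand, RefSeq on GRCm38.p6).
Slc36a1: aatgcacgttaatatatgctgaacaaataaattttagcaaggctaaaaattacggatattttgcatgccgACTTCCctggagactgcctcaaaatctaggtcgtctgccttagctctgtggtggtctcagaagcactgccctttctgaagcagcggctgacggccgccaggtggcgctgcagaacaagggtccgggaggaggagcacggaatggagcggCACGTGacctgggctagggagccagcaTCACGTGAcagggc
Capitals mark CACGTG at 31 to 26 bases before the start, TCACGTGA across the start, which 0.974% of windows hold, and GGAAGT on the other strand, read as ACTTCC, which 23.8% hold. Summed within 1000 bp of this start site, Slc36a1 had 353 and 374 in WT and 322 and 348 in GrnKO, which do not overlap and did not pass (-0.12, 95% interval -0.43 to 0.20, limma adjusted p = 0.753).

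Slc37a2 encodes a sugar phosphate antiporter that is high in macrophages and that microglia of zebrafish need to shrink their phagosomes. It had 2 regions called higher in GrnKO, both in introns. In intron 1, chr9:37248336-37249136 had 134 and 135 scaled tags in WT and 197 and 239 in GrnKO (log2 change 0.68, SE 0.18, limma adjusted p = 0.0210). In intron 10, chr9:37235666-37236466 had 18.4 and 6.81 in WT and 44.7 and 31.6 in GrnKO (1.65, SE 0.49, adjusted p = 0.0385). GrnKO lay above WT in both regions. The second rests on low values and was not called by edgeR's quasi-likelihood test (adjusted p = 0.0586, with 8.58% of all regions called) or without WT replicate 2 (adjusted p = 0.0757). Of its 16 tested regions 14 had a positive change. The strongest, chr9:37246755-37247555 in intron 1, had 387 and 454 against 445 and 487, which overlap (0.15, adjusted p = 0.524). The region over the start site, chr9:37255335-37256135, had 215 and 219 in WT and 227 and 212 in GrnKO (0.02, adjusted p = 0.967). The sum was 2124 and 2318 in WT and 2586 and 2591 in GrnKO (0.22, SE 0.09, adjusted p = 0.108). Leaving out WT replicate 2 gave the sum a change of 0.29. Within 1000 bp of the start site the change was 0.06 and beyond it 0.28 (SE 0.10, adjusted p = 0.0687), and their difference was -0.22 (95% interval -0.56 to 0.12).

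The Slc37a2 promoter is shown as the one window that held an AP-1 motif, beside a start site whose change did not pass (chr9:37255729-37255988, minus strand, RefSeq on GRCm38.p6).
Slc37a2: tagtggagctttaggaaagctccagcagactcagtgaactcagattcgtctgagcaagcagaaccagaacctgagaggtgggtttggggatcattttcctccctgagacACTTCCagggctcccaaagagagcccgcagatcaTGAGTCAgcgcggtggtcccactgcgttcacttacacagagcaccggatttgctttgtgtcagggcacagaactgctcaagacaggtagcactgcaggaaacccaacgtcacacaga
Capitals mark TGANTCA at 107 to 101 bases before the start, held by 7.81% of windows, and GGAAGT on the other strand at 141 to 136. GAGGAAGT was in none of the 7 windows and in 3.20% of all.

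Slc11a1 encodes NRAMP1, a pump for iron and manganese in the phagosome membrane that limits intracellular bacteria, and of which C57BL/6 mice carry a loss-of-function allele. It had 2 regions called lower in GrnKO, both upstream of the gene. At chr1:74368699-74369499, 6104 bp before the start site, it measured 257 and 311 scaled tags in WT against 166 and 158 in GrnKO (log2 change -0.80, SE 0.17, limma adjusted p = 0.00469). At chr1:74369713-74370513, 5090 bp before it, the values were 246 and 289 against 170 and 164 (-0.67, SE 0.16, adjusted p = 0.0142). GrnKO lay below WT in both. The first region lies in the last exon of the neighbouring gene Catip and the second at its transcript end. The regions the table assigns to Catip summed to 219 and 248 in WT and 177 and 150 in GrnKO (-0.51, adjusted p = 0.0870). Without WT replicate 1 the change of that sum was -0.60. Summed over the span of Catip and 1000 bp on each side, which takes in both upstream regions of Slc11a1, the log2 change was -0.67 (adjusted p = 0.00191). At the Slc11a1 start site, chr1:74374737-74375537 had 343 and 403 in WT and 321 and 314 in GrnKO (-0.23, adjusted p = 0.350). The strongest region, chr1:74375174-74375974 in intron 1, had 535 and 635 against 531 and 539, which overlap (-0.12, adjusted p = 0.594). Relative to the other regions of Slc11a1, the first upstream region fell by 0.63 on the log2 scale (limma adjusted p = 0.0436). It was the only member region called in that comparison, whose background is 2.08% of 77519 regions, and 0.719% in that direction. That ratio hardly depends on the scaling, and was -0.63 (adjusted p = 0.0415) in the authors' scaling. There the upstream regions by themselves were -0.57 and -0.45 and were not called (adjusted p = 0.223 and 0.373). The call on the ratio was not kept in every fit that left out a library. The whole sum was 1633 and 1845 in WT and 1466 and 1444 in GrnKO (-0.25, SE 0.10, adjusted p = 0.107). Without WT replicate 1 the sum changed by -0.34, and in the authors' scaling by -0.03 with overlapping groups.

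None of the 7 region calls remained when either GrnKO replicate was left out, in which case the WT pair alone sets the spread. Their log2 changes kept their signs, at -0.90 to -0.53 for the lower and 0.55 to 1.89 for the higher ones. Calls over all regions fell too, from 9.72% to 1.65% without GrnKO replicate 1 and 2.32% without replicate 2. Without WT replicate 1 the calls were 9 higher and 7 lower, where 10.6% and 5.43% of all regions were called. Without WT replicate 2 they were 9 higher and 8 lower, against 11.9% and 5.86%. The 4 lower calls were all lost in the authors' scaling and the 3 higher ones were kept. Input tags at the member regions were few, with medians of 0 to 2.43 scaled tags per input library. The highest among tested regions was 87.8 in GrnKO input replicate 2, at an intron 1 region of Slc15a4, and the same library had 81.6 at the Slc11a1 start site, where the other inputs had 0. At an untested region of Slc38a9, WT input replicate 1 had 172 against 0 to 1.04 in the other inputs.

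Among 36 other tested transporters and channels of lysosomes, 10 rose and 1 fell, a called share of 30.6% against 14.5% of all genes. Their median log2 change was 0.25 against -0.05 for all genes and -0.05 for the members. This list and those below were chosen with earlier results of these data known, so their called shares are not independent of the data. Slc11a2, the iron transporter DMT1 and the relative of Slc11a1, was at 229 ± 52.9 scaled tags in WT and rose to 684 ± 27.1 (SD, n = 2; 1.59 on the log2 scale, limma adjusted p = 4.32e-05). Clcn7, the chloride and proton exchanger of lysosomes, rose from 80.5 ± 3.90 to 288 ± 15.5 (1.82, adjusted p = 5.51e-05). Slc36a4, an amino acid transporter related to Slc36a1, rose from 332 ± 52.1 to 809 ± 45.9 (1.29, adjusted p = 6.74e-05). Slc12a9, of the cation and chloride cotransporter family, fell by 1.01 on the log2 scale (adjusted p = 0.00134). These 4 calls held in the authors' scaling, in which 11.7% of all genes were called.

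Among genes of amino acid sensing to mTORC1, 5 of 23 rose and 1 fell, a called share of 26.1% against 14.5% of all genes, with a median log2 change of 0.01. Rragd, one of the Rag GTPases that recruit mTORC1 to lysosomes, rose from 20.97 ± 5.90 to 222 ± 29.1 scaled tags (log2 change 3.36, limma adjusted p = 1.28e-05). Fnip2, a partner of folliculin, rose from 919 ± 109 to 2219.9 ± 19.8 (1.28, adjusted p = 9.39e-06). Rragc, another Rag GTPase, rose from 557 ± 2.64 to 835 ± 14.2 (0.58, adjusted p = 0.00461), a call lost without GrnKO replicate 1 (0.56, adjusted p = 0.0893) or 2 (0.60, adjusted p = 0.0562). Calls over all gene sums fell in those fits from 14.5% to 5.07% and 6.79%. Lamtor3, of the Ragulator complex, fell by 0.60 (adjusted p = 0.00214). Over the span of Lamtor3 itself the log2 change was 0.72 (adjusted p = 0.193), so the fall lay in regions outside the gene, and the call was lost in the authors' scaling (-0.37, adjusted p = 0.376) and without GrnKO replicate 1 (-0.52, adjusted p = 0.0561).

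Among 18 endosomal nucleic acid receptors, NOD sensors and their partners, 2 rose and 1 fell, with a median log2 change of -0.16. Their called share, 16.7%, was near the 14.5% of all genes. Tlr13, a receptor for bacterial ribosomal RNA, rose by 0.47 on the log2 scale (limma adjusted p = 0.0130), and Hps1, a subunit of a complex for lysosome-related organelles, by 0.91 (adjusted p = 0.0361). Tlr3, the receptor for double-stranded RNA, fell by 0.51 (adjusted p = 0.00715). Each of the 3 calls was lost when either GrnKO replicate was left out (without replicate 1 and 2, Tlr13 was 0.46 and 0.48 with adjusted p = 0.153 and 0.108, Hps1 0.67 and 1.14 with 0.408 and 0.0569, and Tlr3 -0.55 and -0.46 with 0.0572 and 0.108), that of Hps1 also without WT replicate 1 (0.60, adjusted p = 0.0538) and that of Tlr3 in the authors' scaling (-0.28, adjusted p = 0.552). Over the gene span alone neither Tlr13 (0.23, adjusted p = 0.512) nor Tlr3 (-0.32, adjusted p = 0.273) was called, and over non-overlapping regions neither Tlr13 (0.32, adjusted p = 0.0603) nor Hps1 (0.84, adjusted p = 0.0647).

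Among all 273 other tested genes whose symbols begin with Slc, 27 rose and 16 fell, 15.8% in all and near the 14.5% of all genes. Slc38a6, of the same family as Slc38a9, rose from 91.9 ± 9.96 to 302 ± 9.22 scaled tags (log2 change 1.71, limma adjusted p = 7.62e-05). Slc36a2, of the same family as Slc36a1, fell by 0.88 (adjusted p = 0.00266), and Slco4a1, an organic anion transporter, by 0.57 (adjusted p = 0.00149, and 0.478 in the authors' scaling).

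**Figure D5:**
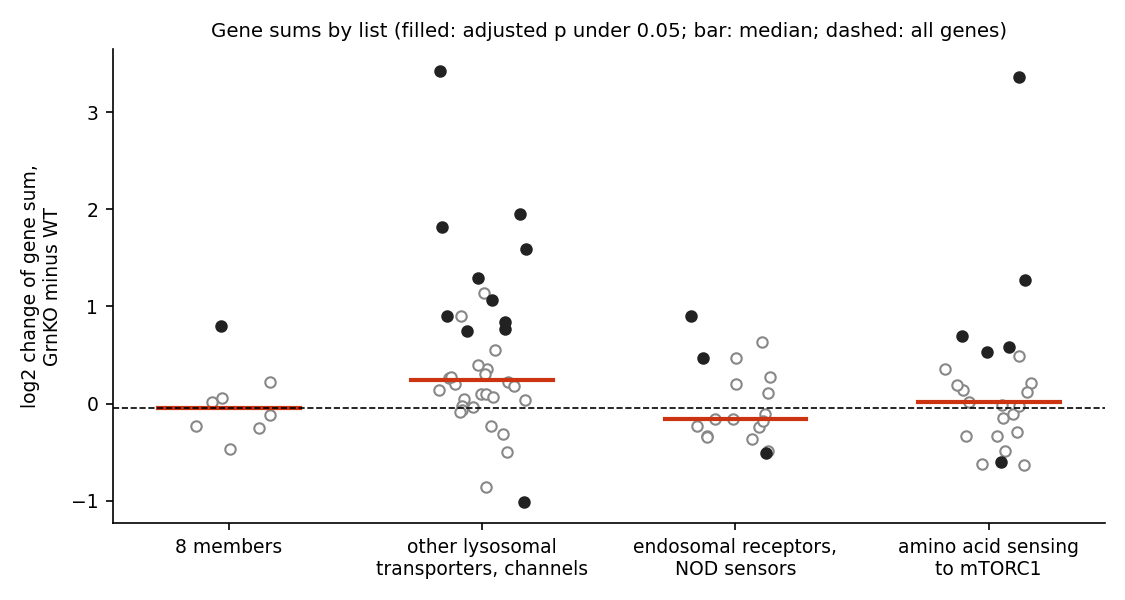
The log2 change (GrnKO minus WT) of the summed H3K27ac of each tested gene in 4 lists; filled points have an adjusted p under 0.05, red bars are list medians and the dashed line is the median of all genes. One member is filled, Slc17a5, and the other lysosomal transporters have the highest median, 0.25.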

How the data were processed

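Per the file headers, the deposited table lists 129304 regions of 800 bp from merged ATAC-seq peaks. The unit of its values is a signal, deposited by the authors as tags per region at a library total of 10000000. The build (mm10) and the tools Bowtie2, HOMER and DESeq2 are named in the submitters' processing notes, without roles or versions. Every value gave whole read ends at 2 ends per tag (100% within 0.05), so tags could be recovered for the count tests used as alternatives. The design had named limma for scaled values, and limma 3.58.1 (lmFit, eBayes with trend) was the main test, in R 4.3.3, on log2(value/TMM factor + 1), which understates changes of low regions.

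Features were kept by filterByExpr of edgeR 4.0.16 with a minimum of 10, p-values were adjusted by Benjamini-Hochberg over all features tested, and the threshold was 0.05. Gene values are sums over the regions with that gene's promoter as nearest. The ratio of a region to the other tested regions of its gene was tested the same way. The scripts were tested on simulated tags. Text names all members' sums, their start-site, strongest and called regions, up to 3 genes per list and direction, the 3 genes most alike to Slc17a5, and its flanks. Members and lists were chosen with earlier results of these data known. Promoters and gene spans come from RefSeq tables of GRCm38.p6. Replicate pairs differed by more than sampling noise (chi-square per region 5.33 in WT and 3.53 in GrnKO). Replicates are separate pools of mice. The eBayes step moderates each feature's variance toward a trend fitted over all features. The limma p-values therefore rest only in part on that feature's own spread between these pools. For gene sums in the authors' scaling the variance came from the trend alone. Alternatives were edgeR, DESeq2 1.42.0, the authors' scaling, other filters, pseudocounts, region sets, a replicate block and leaving out libraries. The start-site comparison, TMM on gene sums and the sums over gene spans were added after seeing the data.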

Additional observations from a re-analysis of the deposited data

How the results depend on the processing

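Of 984 alternative values, 832 had the direction and the side of the threshold reported above. The Slc17a5 sum kept both in 14 of 15 alternatives, the exception being without GrnKO replicate 1. With the authors' scaling alone the member regions called were 7 higher and 0 lower, and the sign turned for Slc36a1 (0.11), for its regions at 55203907 (0.19) and 55208040 (0.18), and for the regions at 74375174 of Slc11a1 (0.10), 10841410 of Slc15a3 (0.11), 127617068 of Slc15a4 (0.17) and 60738539 of Slc29a3 (0.083). Calls lower in GrnKO then fell to 4 among other solute carriers, 0 in the mTORC1 list and 0 in the receptor list, while those of all sums fell from 5.88% to 1.08%. A pseudocount of 5 gave 6 member regions higher (7.48% of all regions), 1 gene lower (6.11% of all sums; Slc38a9, -0.47, adjusted p = 0.0497) and 1 region higher relative to its gene (1.75% of all). Without the filter, 2 member regions were lower (0.866% of all regions), 10 other solute carriers were lower (3.53% of all sums), and Slc36a1 at 55203907 had 0.0074. At a threshold of 0.1, 7 member regions were higher (9.34% of all regions), 8 lower (5.17%) and 2 genes lower (9.01% of all sums).

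Lower calls made up 6.22%, 1.66%, 7.13% and 4.995% of all sums over non-overlapping regions, within 1000 bp, beyond it and over gene spans. Over non-overlapping regions Slc11a1 was called (-0.33, adjusted p = 0.0376), the 1 gene lower. Within 1000 bp of the start site the 1 lower was Slc29a3 (-0.58) and Slc38a9 turned to 0.78. Beyond 1000 bp the 1 lower was Slc38a9 (-0.59) and Slc15a3 turned to -0.058. Over gene spans the 1 lower was Slc38a9 (-0.48, adjusted p = 0.0486), and Lamtor3 turned to 0.72. The cause of these shifts was not tested.

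Replicate numbers are shared by WT and GrnKO pools of different mice, and same-numbered libraries did not deviate together (correlation 0.034 over tested regions, -0.026 over member regions). Xist regions summed to 81.7 and 128 tags in the authors' scaling in replicate 1 of WT and GrnKO and to 0 and 5.49 in replicate 2, and start-site regions on chromosome Y to 5.81 and 0 against 270 and 220, so the replicate number may mark sex, which the labels used here do not give. With the replicate block, 7 member regions were higher and 8 lower (all regions 9.17% and 4.94%), 2 genes were lower, Slc38a9 (-0.47, adjusted p = 0.0287) and Slc29a3 (-0.23, adjusted p = 0.0138), 1 region was higher relative to its gene (3.26% of all), and calls lower numbered 25 among other solute carriers and 3 in the receptor list (8.04% of all sums).

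Leaving out each library in turn, with the lone sample assumed to vary like the other group, gave log2 changes of the sums from -0.55 to -0.39 for Slc38a9, -0.31 to -0.15 for Slc29a3, 0.16 to 0.29 for Slc37a2, -0.12 to 0.15 for Slc15a3, -0.011 to 0.12 for Slc15a4, -0.34 to -0.17 for Slc11a1 and 0.71 to 0.89 for Slc17a5. Member regions higher ranged from 0 to 9 (all regions 1.41% to 11.9%), lower from 0 to 8 (0.243% to 5.86%), genes higher from 0 to 2 (all sums 3.62% to 12.9%) and lower from 0 to 2 (1.44% to 11.3%), and regions relative to their gene from 0 to 3 higher (0.132% to 5.95% of all) and 0 to 4 lower (0.141% to 3.60%). Regions not called changed sign at 74375174 (-0.25 to 0.0016), 10842080 (-0.069 to 0.18), 127617068 (-0.23 to 0.12), 60738539 (-0.38 to 0.10), 55203907 (-0.10 to 0.035) and 37255335 (-0.032 to 0.064). Relative to the rest of the gene the sign changed at 74374737 (-0.00041 to 0.074), 127610564 (-0.052 to 0.079), 78537817 (-0.00080 to 0.41) and 60738539 (-0.082 to 0.27). The start-site sum relative to the other regions ranged from -0.093 to 0.080 for Slc36a1, -0.23 to 0.38 for Slc15a3, -0.087 to 0.11 for Slc15a4 and -0.17 to 0.11 for Slc17a5. Counting error limits regions near the floor of 3 tags, which is 1.498 to 1.94 scaled tags.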
